A study of Homo sapiens with 24 samples.

Results

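The comparison described here set 3 LREX' cultures treated with dexamethasone at 10 nM (Dex 10 nM) against 3 treated with vehicle (DMSO), each measured on 1 Illumina expression beadchip array after 8 h. The arrays were chosen by their treatment label, 6 of the 24 arrays in the series. LREX' is a human prostate cancer line that was derived from tumours growing under the antiandrogen enzalutamide and is known for abundant glucocorticoid receptor. It is 1 line, so the replicates share a genetic background. All cultures, controls included, were kept in charcoal-stripped, steroid-depleted medium, and the series calls the replicates biological triplicates. The other groups used below, of 3 arrays each, received dexamethasone at 100 nM, the androgen dihydrotestosterone (DHT) at 1 nM, enzalutamide alone at 10 µM, or enzalutamide with Dex 10 nM, for which the labels give no enzalutamide dose. The fit also held the remaining groups of the series, which received enzalutamide with DHT 1 nM or with Dex 100 nM, again with no enzalutamide dose given.

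Dexamethasone is a synthetic glucocorticoid. It binds the glucocorticoid receptor, the product of NR3C1, which leaves its chaperones, enters the nucleus and binds DNA elements that resemble those of the other steroid receptors. Classical targets include inhibitors of inflammatory and growth signalling, clock genes, sodium transport genes and genes that dampen the hormone signal itself, and in prostate cancer cells the receptor can also switch on genes known from the androgen response.

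Signal was compared as normalized log2 intensity, one probe per gene, and only within a gene, since levels of different probes cannot be set against each other. A change is the difference of 2 means of 3 arrays on that log2 scale, and the value after ± is its standard error. A gene was called where its limma p-value, adjusted by Benjamini-Hochberg over all 12895 genes tested, was under 0.05. The median signal before normalization was 60.5 to 65.8 on the vehicle arrays and 61.3 to 61.7 on the Dex 10 nM arrays, and 20172 to 20704 and 19810 to 20287 of 47323 probes were detected (detection p under 0.05). Across genes, arrays of 1 group correlated at 0.994 to 0.995 and arrays of different groups at 0.992 to 0.993, and the first principal component of the 6 arrays, with 33.1% of the variance, separated the treatments. Of 17 luminal epithelial markers 15 were tested and 13 detected on all 6 arrays. Of the markers of other cell types, 3 of 11 basal, 1 of 12 neuroendocrine, 9 of 19 stromal and endothelial and 5 of 16 immune genes passed the detection filter. The only one of these called was ACTA2, smooth muscle actin, which is described with the actin genes below.

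Dex 10 nM changed 283 of 12895 genes (2.19%). Of these, 175 were higher (1.36% of all genes tested) and 108 lower (0.838%), and 1711 genes had an unadjusted p under 0.05. The rises were larger than the falls: the median called rise was 0.57 and the median called fall 0.36 on the log2 scale. At least 1.5-fold changes were seen in 86 rises and 15 falls, and at least 2-fold changes in 33 rises and in none of the falls. All 283 called genes had 3 Dex 10 nM arrays lying wholly above or wholly below the 3 vehicle arrays, a separation also seen upward in 9.32% and downward in 10.9% of all genes tested. The split of rises and falls depended on the scaling: scaling each array on the median of all its probes moved the median of all genes from -0.01 to -0.12 and gave 105 higher and 447 lower, and scaling on the tested probes moved it to 0.04 and gave 244 higher and 85 lower. Leaving out 1 of the 6 arrays left 176 to 212 calls, 127 to 142 higher and 42 to 70 lower, and 122 genes (99 higher, 23 lower) held their call whichever array was left out. The number of falls changed by more than 1.5 times whichever array was left out. It was 56 without vehicle replicate 1, 70 without vehicle replicate 2 and 48 without vehicle replicate 3. Without Dex 10 nM replicate 1, 2 or 3 it was 66, 58 or 42.

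**Figure D1:**
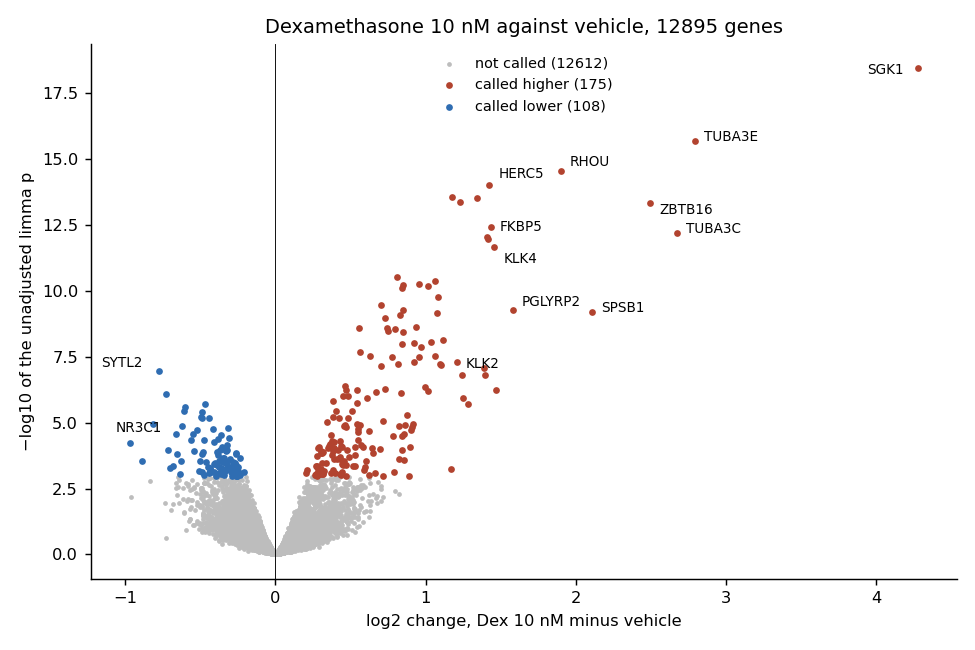
Each point is 1 of 12895 genes, placed by its log2 change with Dex 10 nM (horizontal axis) and the −log10 of its unadjusted limma p (vertical axis). The 175 called rises (red) reach 4.28 with SGK1, whereas none of the 108 called falls (blue) reaches -1.

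The receptor that dexamethasone binds was itself lower. NR3C1 read 6.71, 6.52 and 6.58 on the vehicle arrays and 5.74, 5.76 and 5.41 on the Dex 10 nM arrays, so the groups lay well apart. It fell by 0.97 ± 0.19 on the log2 scale (1.96-fold, limma adjusted p = 0.00649), the largest called fall. That probe was detected on all 6 arrays. The other NR3C1 probe past the filter, detected on 1 of 3 arrays in each group, changed by -0.01 ± 0.16, and the mean of both probes was not called (-0.49). FKBP5, a cochaperone that lowers the hormone affinity of the receptor, moved the opposite way, from 9.51, 9.39 and 9.59 to 11.0001, 10.93 and 10.85. It rose 2.7-fold (1.43 ± 0.08, adjusted p = 5.43e-10). HSD11B2, the enzyme that inactivates cortisol, rose 1.8-fold (0.85 ± 0.07, adjusted p = 2.87e-07). Its vehicle arrays read 8.62, 8.59 and 8.78 and its Dex 10 nM arrays 9.51, 9.54 and 9.47, with no overlap. The other receptors, chaperones and steroid enzymes were not called: of 13 measured receptor and chaperone genes 1 rose and 1 fell, and of 14 measured steroid metabolism genes 1 rose.

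SGK1 showed the largest change of all genes. This kinase, activated downstream of PI3K, promotes sodium uptake and cell survival. Its signal was 6.10, 5.83 and 5.99 with vehicle and 10.24, 10.28 and 10.23 with Dex 10 nM. The difference was 4.28 ± 0.12 on the log2 scale, a 19.4-fold rise (adjusted p = 4.53e-15). Its other probes past the filter gave 4.11 ± 0.15 and 4.03 ± 0.12. Genes on which SGK1 acts, or that act with it on the epithelial sodium channel, moved as well. SCNN1G, the gamma subunit of the channel, read 5.38, 5.69 and 5.46 on the vehicle arrays and 6.38, 6.65 and 6.48 on the Dex 10 nM arrays and rose 2-fold (adjusted p = 9.96e-05). SCNN1A, the alpha subunit, rose less, by 0.38 ± 0.06 (1.3-fold, adjusted p = 2.85e-04). NEDD4L, the ubiquitin ligase that removes the channel from the membrane and that SGK1 inhibits, rose 1.95-fold, from 7.22, 7.42 and 7.29 to 8.33, 8.23 and 8.26 (adjusted p = 4.45e-06). In the sodium and potassium transport list, 5 of 15 measured genes rose (33.3%) and none fell, with a median change of 0.11. Over all genes tested 1.36% rose and 0.838% fell, and the median was -0.01.

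Of 43 genes listed as glucocorticoid-induced, 36 were measured, 18 rose and none fell, and their median change was 0.37. The largest after SGK1 was ZBTB16, a BTB zinc-finger repressor also called PLZF. Its probe read 4.56, 4.68 and 4.74 on the vehicle arrays, not detected on any of them, and 7.45, 7.18 and 6.85 on the Dex 10 nM arrays, all detected. By this probe it therefore rose at least 4.42-fold (adjusted p = 7.21e-11). Its other probes past the filter rose less, by 1.69 ± 0.12 and 0.37 ± 0.16. SPSB1, an adaptor of a ubiquitin ligase, rose 4.32-fold, from 5.48, 5.25 and 5.14 to 7.48, 7.66 and 7.06. In both genes Dex 10 nM replicate 3 gave the lowest of the treated values, still above every vehicle array.

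Transcription factors were among the other risers. CEBPD, a leucine-zipper factor of acute-phase and adipocyte genes, read 8.79, 8.94 and 8.85 with vehicle and 10.29, 10.31 and 10.21 with Dex 10 nM and rose 2.66-fold (adjusted p = 1.13e-09). KLF15, a factor of amino acid and glucose metabolism, rose 2.03-fold (adjusted p = 1.39e-04), and BCL6, a repressor of inflammatory genes, rose 1.62-fold (adjusted p = 2.02e-07). KLF9, which in many tissues is a direct receptor target, started from a bright signal (10.54, 10.68 and 10.62) and rose by 0.47 ± 0.06 to 11.11, 11.08 and 11.06. KLF6 rose by 0.36 ± 0.07 (adjusted p = 0.00704). In all, 5 of 15 measured KLF and C/EBP genes rose (33.3%, beside 1.36% of all genes tested) and none fell. Their median change was 0.10, and -0.01 with each array scaled on all its probes. The fifth riser was KLF5 (0.79 ± 0.20, adjusted p = 0.0397). The KLF5 call was lost without any 1 of 5 arrays, Dex 10 nM replicate 1 being the exception (largest adjusted p = 0.16). Of 24 measured BTB zinc-finger genes 3 rose, with a median of 0.04 that turned to -0.09 under that scaling.

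Of the other genes on the glucocorticoid-induced list, ERRFI1, an inhibitor of the EGF receptor, went from 8.86, 8.86 and 9.06 to 10.26, 10.41 and 10.35, a 2.66-fold rise (adjusted p = 1.05e-09). DDIT4, an inhibitor of mTORC1, rose 1.38-fold (0.46 ± 0.08, adjusted p = 0.00171). TSC22D3, also called GILZ and a mediator of anti-inflammatory effects, rose by 0.38 ± 0.08, from 8.53, 8.44 and 8.53 to 8.89, 8.86 and 8.90 (adjusted p = 0.0105, and 0.0558 without vehicle replicate 2). NFKBIA, the inhibitor that holds NF-kB in the cytoplasm, rose by 0.43 ± 0.09 (adjusted p = 0.0157). That call did not survive the loss of vehicle replicate 1 or 3 or of Dex 10 nM replicate 1 or 2 (largest adjusted p = 0.079). DUSP1, a MAP kinase phosphatase and a classical glucocorticoid target, was not called: it read 8.12, 8.36 and 8.24 with vehicle and 8.10, 8.30 and 8.22 with Dex 10 nM, overlapping groups with a difference of -0.04 ± 0.09 (95% interval -0.22 to 0.15).

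Some genes of the surrounding pathways were called too. Of the MAPK list 4.2% were called higher and 4.2% lower, and of the NF-kB and cytokine list 10.5% and 5.3%. For the insulin and mTOR list the shares were 12.5% and 8.3%, and for all genes tested 1.36% and 0.838%. The list medians were 0.09, 0.01 and -0.01, beside -0.01 for all genes tested. Among 24 measured genes of MAPK feedback and immediate early response, ERRFI1 rose and NR4A2, an orphan nuclear receptor induced early by many signals, was lower by 0.63 ± 0.16 (adjusted p = 0.0429). The NR4A2 call was lost when any 1 of 4 arrays was left out (vehicle replicates 1 and 3, Dex 10 nM replicates 1 and 3; largest adjusted p = 0.204). It was also lost with the mean of its probes. Of 19 measured NF-kB and cytokine genes 2 rose and 1 fell. The faller was MAP3K8, a kinase of inflammatory MAPK signalling, which read 6.99, 7.17 and 7.16 with vehicle and 6.76, 6.57 and 6.52 with Dex 10 nM and fell by 0.50 ± 0.08 (adjusted p = 0.00101). The riser beside NFKBIA was IL1R1, the interleukin-1 receptor (0.56 ± 0.10, adjusted p = 0.0017). Of 24 measured insulin and mTOR genes 3 rose and 2 fell. FOXO3, a transcription factor held inactive by AKT, rose from 10.76, 10.71 and 10.83 to 11.31, 11.33 and 11.35 (1.48-fold, adjusted p = 6.66e-06). The growth factor carrier IGFBP3 rose by 0.53 ± 0.11. Its relative IGFBP5 changed by -0.47 ± 0.12 and DEPTOR, an mTOR inhibitor, by -0.36 ± 0.09, both called lower. These 3 calls were each lost when 1 array was left out, IGFBP5 for all 6 arrays (largest adjusted p = 0.192), DEPTOR for vehicle replicates 1 and 2 and Dex 10 nM replicates 2 and 3 (largest 0.177), and IGFBP3 for vehicle replicates 1 and 3 and Dex 10 nM replicate 1 (largest 0.0882).

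**Figure D2:**
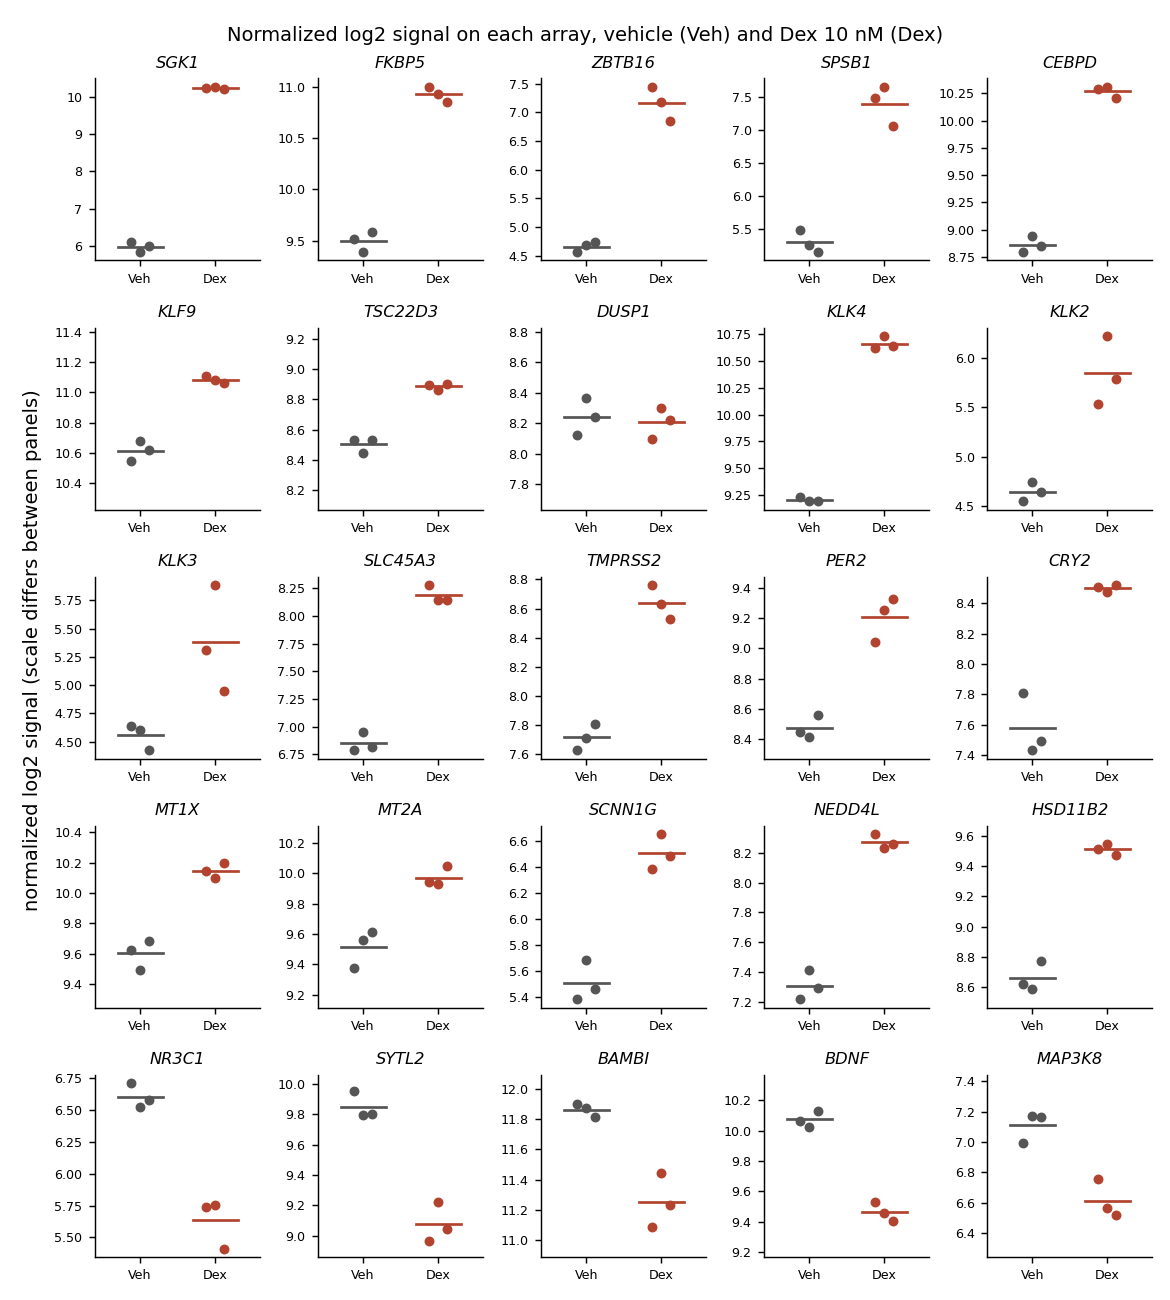
Normalized log2 signal of 25 genes on each of the 3 vehicle (Veh, grey) and 3 Dex 10 nM (Dex, red) arrays; points are arrays, lines are group means, and the vertical scale differs between panels. SGK1 stands at 5.83 to 6.10 against 10.23 to 10.28, whereas the arrays of DUSP1 overlap and the bottom row shows the falls of NR3C1, SYTL2, BAMBI, BDNF and MAP3K8.

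Several genes known from the androgen response rose as well, in medium depleted of steroids and with no androgen added. Of 33 measured genes of the androgen-induced list, 14 rose (42.4%, beside 1.36% of all genes tested) and none fell (median change 0.32). KLK4, a prostate kallikrein protease, read 9.23, 9.20 and 9.19 on the vehicle arrays and 10.62, 10.74 and 10.64 on the Dex 10 nM arrays, a 2.75-fold rise with tight replicates (adjusted p = 2.13e-09). SLC45A3, a prostate solute carrier, rose 2.53-fold, from 6.78, 6.95 and 6.82 to 8.28, 8.15 and 8.14. TMPRSS2, a membrane serine protease, went from 7.63, 7.71 and 7.81 to 8.76, 8.63 and 8.53, 1.9-fold (adjusted p = 1.40e-05). NDRG1, a stress-responsive metastasis suppressor, rose 1.8-fold, and PLPP1, a lipid phosphatase, 1.94-fold (adjusted p = 3.61e-06 and 4.33e-08). PMEPA1, a feedback inhibitor of TGF-beta signalling detected on 2 of 3 vehicle arrays, rose by 0.87 ± 0.14.

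The other kallikreins lay close to background. KLK2 was not detected on any vehicle array (4.55, 4.74 and 4.65) and was detected on all Dex 10 nM arrays (5.54, 6.23 and 5.79), a rise of at least 1.79-fold (adjusted p = 1.45e-05). KLK3, which encodes prostate-specific antigen, was not called. It read 4.64, 4.61 and 4.42 with vehicle, undetected, and 5.31, 5.89 and 4.95 with Dex 10 nM, detected on 2 of 3 arrays. The 3 treated arrays lay above the 3 vehicle arrays but spread widely (SD 0.47), and the change of 0.83 ± 0.26, at least 1.29-fold, had an adjusted p of 0.124. The KLK3 promoter holds the hexamer AGAACA, a piece of the element that steroid receptors recognise, and its 250 bases before the start are printed for that reason, with the hexamer in capitals (chr19:50854665-50854914, plus strand, GRCh38.p14, from RefSeq). The match lies at -170 to -165 from the start.
KLK3: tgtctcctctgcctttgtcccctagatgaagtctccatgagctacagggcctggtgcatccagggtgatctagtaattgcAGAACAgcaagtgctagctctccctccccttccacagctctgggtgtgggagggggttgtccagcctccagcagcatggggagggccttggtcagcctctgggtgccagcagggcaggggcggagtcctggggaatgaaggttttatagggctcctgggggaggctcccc
Searched on both strands of the 250 bases before the start, the hexamer occurred in 788 of 10228 promoters of tested genes (7.70%) and in 12.4% of all 27305 promoters. It occurred in 11 of 137 promoters of called rises (8.03%) and 8 of 85 of called falls (9.41%). The full palindrome, the hexamer and its reverse complement with 3 bases between, occurred in 1 of the 27305 and in none of the tested genes, so within this window the letters were about as common in changed as in other genes. These matches describe sequence and not binding, and elements beyond the window were not searched.

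Some genes listed as repressed by androgen were lower. This list, like the others, was chosen with earlier results of these data known, so its counts describe and do not test. Of 18 measured members of that list 5 fell (27.8%) and none rose, and the median change was -0.15. Over all genes tested 0.838% fell and 1.36% rose, and the median was -0.01. SYTL2, a vesicle-docking protein, had the largest fall of the list, by 0.78 ± 0.09 on the log2 scale (adjusted p = 2.66e-05). It read 9.96, 9.79 and 9.80 on the vehicle arrays against 8.96, 9.22 and 9.04 on the Dex 10 nM arrays. BDNF, a neurotrophin, went from 10.06, 10.02 and 10.13 to 9.53, 9.46 and 9.41 (change -0.61 ± 0.09, adjusted p = 6.25e-04). BAMBI, a pseudoreceptor that blocks TGF-beta and BMP signals, went from 11.90, 11.88 and 11.81 to 11.09, 11.45 and 11.23 (change -0.61 ± 0.09). The groups were separate for all of these. LRRN1, a leucine-rich repeat membrane protein, changed by -0.62 ± 0.11 and NAPEPLD, which makes N-acylethanolamines, by -0.49 ± 0.08, and both were called. Among 18 measured TGF-beta and BMP feedback genes, PMEPA1 rose, BAMBI fell and the median was -0.14.

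Among the clock genes 6 of 18 measured rose and none fell, with a median change of 0.22. Of all genes tested 1.36% rose and 0.838% fell, with a median of -0.01. With each array scaled on all its probes, 5 clock genes were called higher and 1 lower. Their median was then 0.08, beside -0.12 for all genes. The 6 risers were repressor and output genes. CRY2, a cryptochrome that represses CLOCK and BMAL1, rose 1.89-fold: vehicle replicate 1 was the highest control at 7.81, and all Dex 10 nM arrays lay between 8.47 and 8.52 (adjusted p = 3.31e-06). PER2, a period repressor, read 8.45, 8.42 and 8.56 with vehicle and 9.04, 9.25 and 9.33 with Dex 10 nM (1.66-fold, adjusted p = 1.17e-04); the mean of its probes moved by 0.26 and was not called. TEF, a PAR-domain output factor, rose 1.54-fold (0.62 ± 0.11), and CIART and BHLHE40, repressors of the same loop, rose by 0.57 ± 0.11 and 0.36 ± 0.07. The CIART and BHLHE40 calls each had an adjusted p above the threshold without Dex 10 nM replicate 3 (0.0511 and 0.0557).

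PER1, the period gene best known as a direct glucocorticoid target, was at the edge of detection. It read 4.57, 4.63 and 4.64 on the vehicle arrays, all undetected, and 5.50, 5.20 and 5.80 on the Dex 10 nM arrays, all detected. The rise of at least 1.4-fold only just met the threshold (adjusted p = 0.04997) and missed it without vehicle replicate 1, 2 or 3 or without Dex 10 nM replicate 1 or 3 (largest adjusted p = 0.234). The activating arm was not called: CLOCK changed by -0.26 ± 0.09 and BMAL1 by -0.30 ± 0.12. PER3 (0.25 ± 0.10), DBP (0.18 ± 0.12) and HLF (0.32 ± 0.11) were not called either. Nor were the repressors CRY1 (0.02 ± 0.10), NR1D1 (0.49 ± 0.17) and NR1D2 (-0.42 ± 0.16), so repressors did not all move one way.

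Of 9 measured metallothionein and zinc genes 2 rose and none fell (median change 0.25). Over all genes tested 1.36% rose and 0.838% fell, so a list of 9 can hold no fall without differing from all genes. Metallothioneins are small proteins that bind zinc and copper and are induced by metals and by glucocorticoids. MT1X read 9.63, 9.49 and 9.69 on the vehicle arrays and 10.15, 10.10 and 10.20 on the Dex 10 nM arrays (1.46-fold, adjusted p = 1.29e-04). MT2A read 9.38, 9.56 and 9.61 and 9.94, 9.93 and 10.05 (1.37-fold, adjusted p = 0.00182). MT1F gave 0.39 ± 0.13 with overlapping groups, MT1G was undetected with vehicle, and MTF1, the zinc-sensing factor of these promoters, changed by -0.12 ± 0.12, none of them called. The metallothioneins are close copies of one another, and whether their probes cross-hybridise was not tested. The promoters of MT1X (chr16:56682220-56682469) and MT2A (chr16:56608334-56608583), both on the plus strand of GRCh38.p14 in RefSeq, are printed because they carry the metal element in many copies; capitals mark TGCGCNC or TGCACNC on either strand.
MT1X: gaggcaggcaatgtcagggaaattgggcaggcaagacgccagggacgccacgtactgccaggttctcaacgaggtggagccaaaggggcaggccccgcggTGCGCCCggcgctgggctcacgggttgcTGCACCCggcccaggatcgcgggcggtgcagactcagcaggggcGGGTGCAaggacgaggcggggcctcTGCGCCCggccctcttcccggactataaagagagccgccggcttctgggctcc
MT2A: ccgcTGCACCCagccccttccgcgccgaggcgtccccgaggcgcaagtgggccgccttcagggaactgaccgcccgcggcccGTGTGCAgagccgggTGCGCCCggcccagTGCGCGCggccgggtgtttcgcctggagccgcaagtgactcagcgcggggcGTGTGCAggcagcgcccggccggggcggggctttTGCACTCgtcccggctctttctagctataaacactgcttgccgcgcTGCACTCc
MT1X had 4 matches and MT2A had 7 in these 250 bases, none overlapping another. At least 1 match occurred in 32.4% of the 10228 promoters of tested genes and 3 or more in 2.22%. Among called rises 41 of 137 promoters held at least 1 (29.9%), and among called falls 29 of 85 (34.1%). For 3 or more matches the counts were 4 of 137 (2.92%) and 3 of 85 (3.53%).

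Further genes were among the largest rises. TUBA3E and TUBA3C, alpha-tubulin genes of near-identical sequence, rose 6.94-fold and 6.38-fold (adjusted p = 1.36e-12 and 7.80e-10). TUBA3E read 6.55, 6.75 and 6.64 and then 9.50, 9.43 and 9.39, and TUBA3C 5.40, 5.34 and 5.47 and then 7.99, 8.16 and 8.09. Which copy the probes measured is uncertain. RHOU, an atypical small GTPase and a member of the androgen-induced list, rose 3.73-fold, from 9.02, 9.08 and 9.13 to 10.98, 11.0029 and 10.95 (adjusted p = 1.21e-11). HERC5, the ligase of the ubiquitin-like ISG15, rose 2.68-fold and PRR15L, a proline-rich protein, 2.35-fold. HTR3A, a serotonin-gated channel subunit, was detected on 1 of 3 vehicle arrays and all Dex 10 nM arrays (5.65, 4.88 and 4.86 against 6.53, 6.50 and 6.77) and rose by 1.47 ± 0.20. PGLYRP2, a peptidoglycan-recognition amidase, and FAXDC2, a fatty acid hydroxylase family member, were below detection on every vehicle array and rose by factors of at least 2.45 and 2.29. EMP1, an epithelial membrane protein, rose by 1.39 ± 0.17, BRINP1, a neural cell-cycle inhibitor, by 1.29 ± 0.19, OTULINL by 1.25 ± 0.18 and COLCA1 by 1.24 ± 0.15.

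Of 19 measured small GTPase and actin genes 6 were higher and none lower (median change 0.11). RHOU and RASD1 among them were also counted in the androgen-induced and glucocorticoid-induced lists. Over all genes tested 1.36% were higher and 0.838% lower, with a median of -0.01. With each array scaled on all its probes 4 of the 19 were called higher. The list median was then 0.01, beside -0.12 for all genes. Besides RHOU, RND3, an atypical GTPase that loosens actin fibres, rose 2.17-fold, from 6.94, 7.47 and 7.26 to 8.45, 8.40 and 8.17. RASD1, a Ras-like GTPase first found as a dexamethasone-induced gene, rose by 0.90 ± 0.18 (adjusted p = 0.00819); vehicle replicate 1 was its lowest array at 5.12, and without it the adjusted p was 0.0586. ACTA2 read 6.88, 6.65 and 6.78 with vehicle and 7.21, 7.39 and 7.18 with Dex 10 nM, and its rise of 0.49 ± 0.11 was lost without vehicle replicate 2 or 3 or Dex 10 nM replicate 2 (largest adjusted p = 0.094). ACTA2 is also a smooth muscle marker; no other gene of the stromal list was called, and a part of such cells in the change was not tested. Of 26 measured glucose transport and glycolysis genes 2 rose (7.7%, beside 1.36% of all genes tested), 1 of them SLC2A12, a glucose transporter (2.09-fold). In bulk RNA, a change in the share of cells that express a gene and a change in the RNA per cell cannot be told apart.

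Outside the androgen-repressed list, 4 called falls rested on probes that were dim with Dex 10 nM. STYXL2, a pseudophosphatase, PATE1, a prostate and testis protein, OSBPL10, an oxysterol-binding-like protein, and OR2T6, an olfactory receptor, were not detected on any Dex 10 nM array. They fell at least 1.7-fold, 1.39-fold, 1.44-fold and 1.23-fold. PATE1, for example, read 5.45, 5.67 and 5.48 with vehicle and 4.71, 4.92 and 4.77 with Dex 10 nM, but the mean of its probes was not called (-0.40). ARHGAP35, a GTPase-activating protein, changed by -0.89 ± 0.20, but its call was lost when any 1 of 4 arrays was left out (vehicle replicates 1 and 2, Dex 10 nM replicates 1 and 3; largest adjusted p = 0.129). LTN1, a ribosome quality-control ligase, was brighter and more even: it read 9.77, 9.77 and 9.91 with vehicle and 9.19, 9.16 and 9.11 with Dex 10 nM, a change of -0.66 ± 0.12 (adjusted p = 0.0032). TANC1, a synaptic scaffold protein, changed by -0.52 ± 0.09, PLGLB1, related to plasminogen, by -0.56 ± 0.11, and TESK2, a kinase of cofilin, by -0.55 ± 0.10, and these held their calls whichever array was left out. The remaining falls among the 20 largest included RAP2B, a Ras-like GTPase, TRUB1, a pseudouridine synthase, ZNF414, a zinc-finger protein, and TMEM50A, a membrane protein, at -0.51 to -0.65. Each of these lost its call without at least 2 of the arrays, as did OSBPL10 and OR2T6 (largest adjusted p from 0.0642 to 0.198). For RAP2B the mean of its probes was not called (-0.32). ABCG1, a cholesterol exporter, was called lower at -0.43 ± 0.10, but not without vehicle replicate 1, 2 or 3 or Dex 10 nM replicate 2 or 3 (largest adjusted p = 0.159). Its other probes past the filter went both ways, from -0.67 ± 0.21 to 0.38 ± 0.13, and the mean of its probes was not called (-0.14).

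Several lists held no called gene. Of all genes tested 2.19% were called, so lists this short can lack a call without differing from all genes. None of 45 measured replication and mitosis genes was called, and 33 of them lay below 0 with a median of -0.07. The median of all genes tested was -0.01. Of the 26 measured genes of protein folding in the endoplasmic reticulum, the 19 of amino acid transport and the 12 of polyamine metabolism, none was called either, with medians of 0.04, 0.01 and 0.07. At an unadjusted p under 0.05 these 4 lists had 6, 4, 2 and 1 members, beside 1711 of all 12895 genes tested. Of 28 sterol and fatty acid synthesis genes 1 was called. With each array scaled on all its probes the 4 medians were -0.20, -0.08, -0.13 and -0.04, beside -0.12 for all genes, so the last 3 turned below 0. Under that scaling 1 replication and mitosis gene and 2 amino acid transport genes were called lower.

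**Figure D3:**
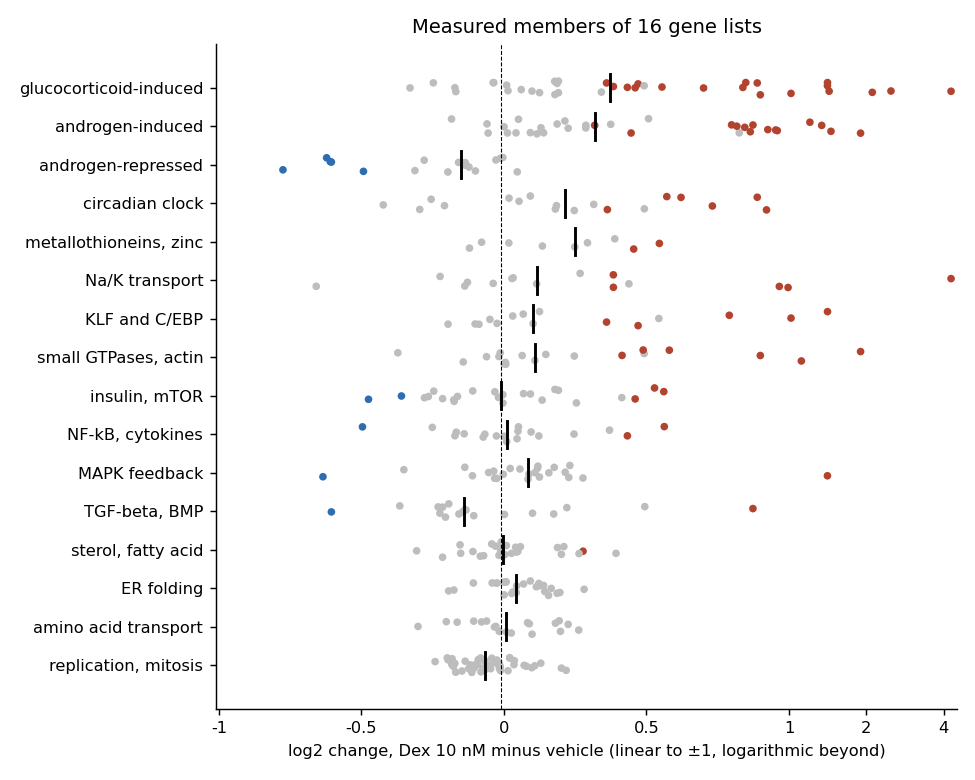
Log2 change with Dex 10 nM (horizontal axis, linear to ±1 and logarithmic beyond) of the measured members of 16 gene lists; red and blue points are called higher and lower, grey are not called, black bars are list medians and the dashed line is the median of all genes (-0.01). Calls gather in the glucocorticoid-induced (18 of 36) and androgen-induced (14 of 33) lists. Replication and mitosis (45 genes) has none, and of all genes tested 2.19% were called.

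The response was compared with that to the higher dose and to DHT. These comparisons share the Dex 10 nM arrays, and changes from vehicle share the vehicle arrays too, so the values below are set side by side and the difference is what was tested. Between 100 and 10 nM, 84 of 12895 genes were called (0.651%). Among the 175 rises at 10 nM, 45 stood higher still at 100 nM and 1 lower, and among the 108 falls 2 stood lower still. SGK1 changed by 4.28 ± 0.12 at 10 nM and by 6.03 at 100 nM (difference 1.75 ± 0.12, adjusted p = 2.90e-08). ERRFI1 gained 1.24 ± 0.09, SCNN1G 1.13 ± 0.13, SLC45A3 0.90 ± 0.07 and FKBP5 0.65 ± 0.08 (adjusted p = 3.80e-08, 1.02e-04, 1.09e-07 and 2.51e-04). DUSP1, not called at 10 nM against vehicle, was higher at 100 nM than at 10 nM by 0.70 ± 0.09 (adjusted p = 2.55e-04).

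Other rises showed no called difference between the doses. For KLK4 the difference was 0.15 ± 0.09 (95% interval -0.04 to 0.35), for PER2 0.07 ± 0.10 (-0.14 to 0.28), for SLC2A12 -0.05 ± 0.12 (-0.30 to 0.20) and for MT2A -0.15 ± 0.08 (-0.31 to 0.01). In the lists, 16 of 36 glucocorticoid-induced genes were higher at 100 nM than at 10 nM, as were 4 of 33 androgen-induced genes and none of 18 clock genes. Of all 12895 genes tested 75 were higher, so a list of 18 can hold none without differing from all genes. The count of 84 fell to 45 without Dex 100 nM replicate 2 and to 53 without Dex 10 nM replicate 3.

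Against DHT at 1 nM, 317 genes differed (2.46%). Among the 175 rises with Dex 10 nM, 47 were higher with dexamethasone than with DHT and 26 lower, and among the 108 falls 10 and 3. RASD1 (-2.18 ± 0.18), TMPRSS2 (-1.38 ± 0.11), SLC45A3 (-1.33 ± 0.07), PMEPA1 (-1.50 ± 0.14) and NDRG1 (-1.19 ± 0.09) stood lower with dexamethasone, each difference being dexamethasone minus DHT on the log2 scale (adjusted p from 2.24e-10 to 9.86e-07). RHOU (-1.08 ± 0.08) and KLK2 (-0.96 ± 0.14) were lower too. PGLYRP2 (1.44 ± 0.14), FAXDC2 (1.41 ± 0.17), SCNN1G (1.34 ± 0.13) and EMP1 (1.23 ± 0.17) stood higher with dexamethasone, and from vehicle they changed with DHT by 0.14, -0.02, -0.34 and 0.16. So did DDIT4 (0.77 ± 0.08), TSC22D3 (0.61 ± 0.08), PER2 (0.61 ± 0.10), BCL6 (0.64 ± 0.06), KLF9 (0.47 ± 0.06) and MT1X (0.45 ± 0.07). KLK4 and FKBP5 showed no called difference from DHT, at 0.05 ± 0.09 (95% interval -0.14 to 0.24) and -0.01 ± 0.08 (-0.19 to 0.16). By list, 10 of 33 androgen-induced genes were lower and 2 higher with dexamethasone than with DHT, and of 18 clock genes 5 were higher and none lower. Of all 12895 genes tested 179 were lower and 138 higher.

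**Figure D4:**
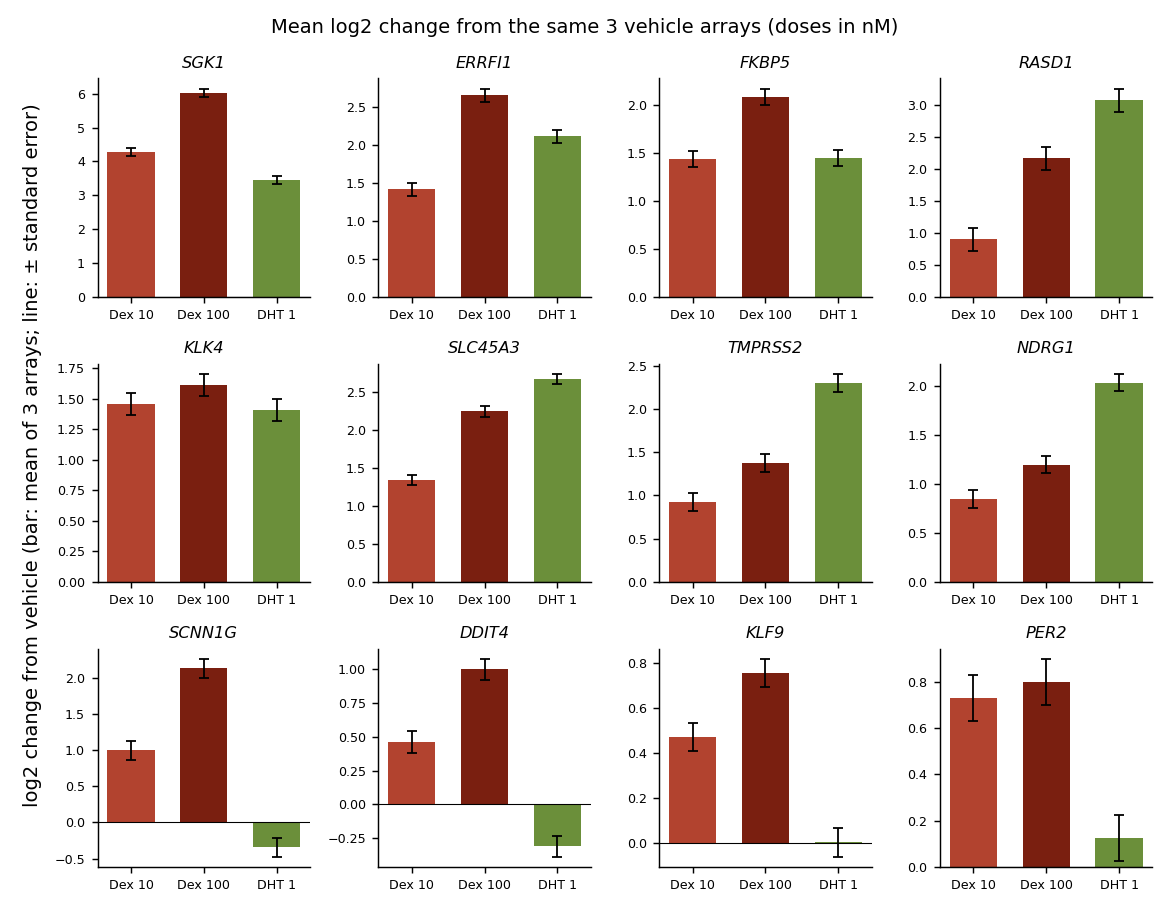
Mean log2 change from the 3 vehicle arrays of 12 genes with Dex 10 nM, Dex 100 nM and DHT 1 nM (bars, 3 arrays per group; lines, standard error; vertical scale differs between panels). The 3 changes share the vehicle arrays. SLC45A3, TMPRSS2 and NDRG1 stand highest with DHT, and SCNN1G and DDIT4 are below 0 with DHT and above 0 with both dexamethasone doses.

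The same dose was also given with enzalutamide, on 6 arrays that the comparison itself did not use. Enzalutamide with Dex 10 nM against enzalutamide alone gave 139 called genes (1.08%), 115 higher and 24 lower. Of the 283 genes above, 253 moved in the same direction there: 164 of 175 rises and 89 of 108 falls. Called in the same direction were 97 rises and 12 falls, which is 38.5% of the 283 and 78.4% of the 139, and none was called in the opposite direction. SGK1 changed by 4.28 ± 0.12 without and 4.43 ± 0.12 with enzalutamide, ZBTB16 by 2.50 ± 0.13 and 2.57 ± 0.13, and FKBP5 by 1.43 ± 0.08 and 1.49 ± 0.08. The ZBTB16 probe was not detected on any vehicle array, so the size of its rise without enzalutamide is known only as the lower bound given above. All 14 androgen-induced risers and 13 of the 18 glucocorticoid-induced risers were called again. SLC45A3 moved by 1.26 ± 0.07, KLK4 by 1.32 ± 0.09, TMPRSS2 by 0.70 ± 0.11 and NDRG1 by 0.54 ± 0.09 under enzalutamide.

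The falls were smaller on those arrays. The median change of the 175 rises was 0.57 without and 0.49 with enzalutamide, and that of the 108 falls was -0.36 and -0.15. The genes had been called on the first 6 arrays, and the part of that choice in the smaller values was not tested. BDNF, BAMBI, LRRN1, MAP3K8 and SYTL2 were called lower again (changes of -0.58 ± 0.09, -0.54 ± 0.09, -0.60 ± 0.11, -0.45 ± 0.08 and -0.46 ± 0.09). NR3C1 gave -0.61 ± 0.19 and was not called (adjusted p = 0.185), ARHGAP35 gave 0.49 ± 0.20 and PATE1 -0.00. The test of the difference between both responses called 0 of 12895 genes (0%) in limma, with 1001 at an unadjusted p under 0.05 and a smallest adjusted p of 0.375. Without vehicle replicate 1 it called 1, ASF1A, a histone chaperone, named here after its value was seen (difference 0.65 ± 0.09, adjusted p = 0.0119, and 0.55 with adjusted p = 0.375 over all arrays).

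The vehicle arrays stood at an end of the series for many of these genes. For 91 of the 108 falls (84.3%) the vehicle mean was the highest of the 8 group means, which was so for 16.8% of all genes tested. Enzalutamide alone was below vehicle in 95 of the 108, with a median difference of -0.15. For 87 of the 175 rises (49.7%) the vehicle mean was the lowest, against 12.8% of all genes tested. The calls themselves used those vehicle arrays. Whether something in the vehicle arrays other than the absence of hormone bears on the falls was not tested.

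**Figure D5:**
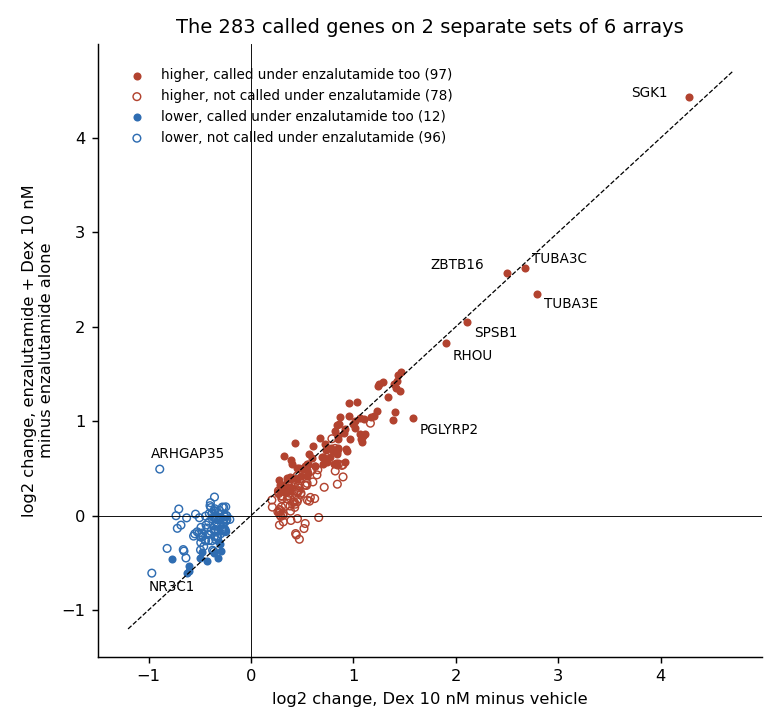
The 283 called genes by their log2 change with Dex 10 nM against vehicle (horizontal axis) and with enzalutamide plus Dex 10 nM against enzalutamide alone (vertical axis); filled points were called on the second set of arrays too and the dashed line marks equal changes. Of the 175 rises (red) 164 stay above 0 on the vertical axis, and of the 108 falls (blue) 89 stay below it.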

How the data were processed

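Total RNA was labelled with biotin and hybridised to Illumina beadchips, per the labels' protocols. The deposited signal intensity of a probe is its mean bead signal without normalization, and the deposited detection p-value sets it against negative control beads, per the file headers. GenomeStudio is named in the submitters' processing notes without a version. The series also holds normalized intensity values deposited with no stated method, used as an alternative only.

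Background was removed by normexp, its negative controls being inferred from the detection p-values (offset 16), and signals were brought to a common distribution by quantile normalization and log2-transformed (limma 3.58.1, R 4.3.3). Of 47323 probes, 30113 carried 1 annotated symbol, 8 carried several and 17202 carried none (unnamed here, not without a gene); 30074 were matched to RefSeq (GRCh38.p14) by Entrez identifier. A probe was kept where its detection p was under 0.05 on 3 or more of the 24 arrays (24607, of which 17590 had 1 symbol), and the probe with the highest mean stood for a gene (3586 genes had several). Group means of all 8 groups were fitted to the 24 arrays with lmFit and eBayes, so the spread is shared, with Benjamini-Hochberg adjustment over 12895 genes in each of 5 contrasts; all adjusted p-values are limma's. The number of arrays limits the precision. For a gene undetected on all 3 arrays of 1 group, the fold is a lower bound: each dim array was given its lowest detected signal, or the probe's signal if that was higher, and these were averaged and set against the mean of the bright group.

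The comparison, the gene lists and the genes named were chosen with earlier results of these data known. Named were the 20 largest called rises and falls with separate arrays, a fixed set of hormone response genes, up to 5 called genes per list, the clock and metallothionein genes, and the 5 largest differences each way from Dex 100 nM, from DHT and with enzalutamide among called genes. Some of them are not reported here. Alternatives were other scalings, filters, probe rules, weights, a block on title numbers, only the arrays compared, and each array left out.

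The labels do not say what the running numbers in the titles mean, and whether they pair the arrays was not settled. Deviations from the group means within a decade correlated at 0.02, -0.00 and 0.07, and between decades at -0.07 to 0.05. On the second principal component of the 6 arrays (20% of the variance), replicate 3 lay at -10.14 (vehicle) and -13.69 (Dex 10 nM). Replicates 1 and 2 of both groups lay between 2.5 and 11.21. With the decades as a block, 335 genes were called, beside 283 without it. The files used name no slides, so slides were not a block. Motifs were searched in RefSeq promoter windows, which matched 87 of 114 genes named by the rule.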

Additional observations from a re-analysis of the deposited data

How the results depend on the processing

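A fit of the 6 arrays alone gave, for Dex 10 nM against vehicle, 102 calls (86 higher, 16 lower), 93 of them shared with the 283. Fits of only the arrays compared gave 14 calls between the doses, 122 against DHT and 57 under enzalutamide. In the fit of the 6 arrays, 28 of 76 named called genes lost their call: 19 that also lost it when 1 array was left out, and BAMBI, DDIT4, IL1R1, KLF6, LRRN1, MAP3K8, MT2A, PMEPA1 and SCNN1A. With each array scaled on all its probes, 7 lost it (ACTA2, BHLHE40, IGFBP3, KLF6, NFKBIA, SCNN1A and TSC22D3). That scaling gave 552 calls (105 higher, 447 lower), 213 of them shared. The other alternatives gave 226 to 381 calls, fewest without a detection filter and most with array weights; the block on title numbers gave 335. Leaving out 1 array gave 176 to 212 calls for Dex 10 nM against vehicle (127 to 142 higher, 42 to 70 lower), 45 to 81 between the doses and 240 to 255 against DHT; under enzalutamide it moved the count by less than 1.5 times. For the difference between the responses with and without enzalutamide it gave 0 to 1 calls, and the fit of only the arrays compared, the scaling on all probes and the block on title numbers gave 0; no other alternative was run for it. DUSP1, uncalled, lay between -0.096 and 0.0246 when 1 array was left out. No other named gene changed direction under these alternatives, through which CRY1 was not followed. Of the 76, 44 kept their call under all of them. Causes were not tested. Signal over background limits KLK2, KLK3, PER1, ZBTB16 and other genes undetected in 1 group to bounds. The labels give these arrays no shared replicate numbers, so no other block was tried.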
